A study of Mus musculus with 6 samples.

Results

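Siglecs are receptors of the immunoglobulin superfamily that bind sialic acids, the sugars that end many glycan chains on cell surfaces. The 6 genes *Siglec1*, *Siglece*, *Siglecg*, *Siglech*, *Cd33* and *Cd22* were taken by symbol from the deposited table of raw counts, which holds 24061 gene symbols. They were examined in macrophages sorted from mouse mammary glands, in which the subset that carries the hyaluronan receptor Lyve-1 was compared with the subset that lacks it. All 6 had enough counts to be tested, as did 13348 of the 24061 symbols.

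The libraries were made from CD45+CD11b+F4/80+ cells of FVB/N mice, sorted from the inguinal mammary glands after the lymph nodes had been removed. The deposited counts held 3 libraries of Lyve-1- cells and 3 of Lyve-1+ cells, and 4 mice were pooled for each. The study's methods describe duplicate samples and the removal of a 6-week sample as a sequencing outlier. In both subsets the mice of replicate 1 were 6 weeks old and those of replicates 2 and 3 were 10 weeks old, with no further treatment or allele named. Whether the Lyve-1- and Lyve-1+ libraries of 1 number came from the same mice was not given in the sources used here.

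Most Siglecs carry an inhibitory tyrosine motif (ITIM) in the cytoplasmic tail, which recruits the phosphatases SHP-1 and SHP-2 once it is phosphorylated. *Cd22* and *Siglecg* encode inhibitory co-receptors best known from B cells, and *Siglece* and *Cd33* encode receptors of myeloid cells. *Siglec1* encodes sialoadhesin (CD169), a long adhesion receptor of tissue macrophages without an ITIM, and *Siglech* encodes a receptor that signals through the adaptor DAP12 and marks plasmacytoid dendritic cells and microglia.

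*Siglecg*, *Cd33* and *Siglece* lie close together on chromosome 7 and were the 3 members whose libraries did not overlap between the subsets, so the sequence before their transcription starts is given. Of the 6 members, 5 matched a RefSeq promoter on GRCm38.p6, and *Siglec1* did not. Each sequence below is the 250 bases before the first RefSeq start, written 5′ to 3′ on the strand of the gene. The regions are chr7:43407989-43408238 on the plus strand for *Siglecg*, chr7:43533172-43533421 on the minus strand for *Cd33* and chr7:43660162-43660411 on the minus strand for *Siglece*. Capitals mark the letters GAGGAA or their reverse complement TTCCTC, a purine-rich core to which the myeloid factor PU.1 is known to bind.
Siglecg: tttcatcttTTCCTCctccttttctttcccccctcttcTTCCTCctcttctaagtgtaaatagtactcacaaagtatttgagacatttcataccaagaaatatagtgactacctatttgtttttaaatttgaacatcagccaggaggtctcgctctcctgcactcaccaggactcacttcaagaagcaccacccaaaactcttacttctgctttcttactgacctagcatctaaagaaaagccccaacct
Cd33: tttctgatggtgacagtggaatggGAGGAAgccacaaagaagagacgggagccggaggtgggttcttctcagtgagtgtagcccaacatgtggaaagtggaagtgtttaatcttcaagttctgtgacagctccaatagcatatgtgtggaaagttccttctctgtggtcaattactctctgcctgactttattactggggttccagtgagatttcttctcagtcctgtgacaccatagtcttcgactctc
Siglece: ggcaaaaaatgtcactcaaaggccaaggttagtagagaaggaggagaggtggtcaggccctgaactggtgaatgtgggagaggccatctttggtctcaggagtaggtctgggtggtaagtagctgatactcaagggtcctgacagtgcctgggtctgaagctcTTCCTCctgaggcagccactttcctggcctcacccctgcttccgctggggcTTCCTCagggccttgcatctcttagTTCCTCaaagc

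There were 2 matches before *Siglecg*, 1 before *Cd33* and 3 before *Siglece*, and 0 before *Siglech*, *Cd22* and a second RefSeq start of *Siglecg*. Of all 32851 promoters of 250 bases, 7639 (23.3%) held the letters on either strand. A match describes the sequence only and was not set against binding data.

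Total counts ran from 6478007 to 21406839 per library, so a count of 0 allows a level of up to 3 counts, which is 0.144 to 0.437 CPM (the count normalised by library size and TMM factor). These floors cover counting error only. *Lyve1* itself had 17, 75 and 51 counts in the Lyve-1- libraries and 30871, 16441 and 4735 in the Lyve-1+ libraries, which follows the labels. The 9 macrophage markers present in the table, among them *Csf1r*, *Cd68* and *Itgam*, summed to 4705 to 7363 CPM in Lyve-1- and 6134 to 7920 CPM in Lyve-1+ libraries. *Adgre1*, which encodes F4/80, was the listed macrophage marker not found in the table under its symbol, so this sort marker was not analysed here. Some libraries also held counts on olfactory receptor genes, which macrophages are not known to use. Out of 1112 such genes, Lyve-1- replicate 3 had counts on 652, Lyve-1+ replicate 1 on 370 and Lyve-1+ replicate 2 on 134, whereas the other libraries had them on 4 to 34. At the mean density on the receptors, the most expected on any member was 20.5 counts, on *Cd33* (728 counts) in Lyve-1- replicate 3. The stray counts were uneven between genes, 4160 of them on 134 receptors in Lyve-1+ replicate 2, so this mean is no upper limit.

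Differential expression was tested with edgeR over all 13348 genes, and the rule for a call was an adjusted p below 0.01 together with a log2 fold change between 1 and 10 in either direction. By this rule 15 genes (0.112%) were called, 14 higher (0.105%) and 1 lower (0.00749%), and 0 of the 6 Siglec genes. At an adjusted p under 0.05 without a fold limit, edgeR held 84 genes (0.629%), among them *Siglecg*. DESeq2, with the first rule, called 145 genes (1.09%), again with *Siglecg* as the only member. At an unadjusted p under 0.05, edgeR held 1027 genes (7.69%) and 3 of the 6 members, *Siglec1*, *Siglecg* and *Cd33*. For 3 of the 6 members the subsets did not overlap, against 1911 of all genes tested (14.3%). *Cd33* was the member with all Lyve-1+ libraries above (7.82% of all genes), and *Siglece* and *Siglecg* those with all of them below (6.5%). The members' median log2 fold change was 0.80, beside -0.01 for all genes tested. These p-values measure only the spread between pools, and in bulk libraries fewer cells that express a gene and less RNA per cell cannot be told apart.

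**Figure D1:**
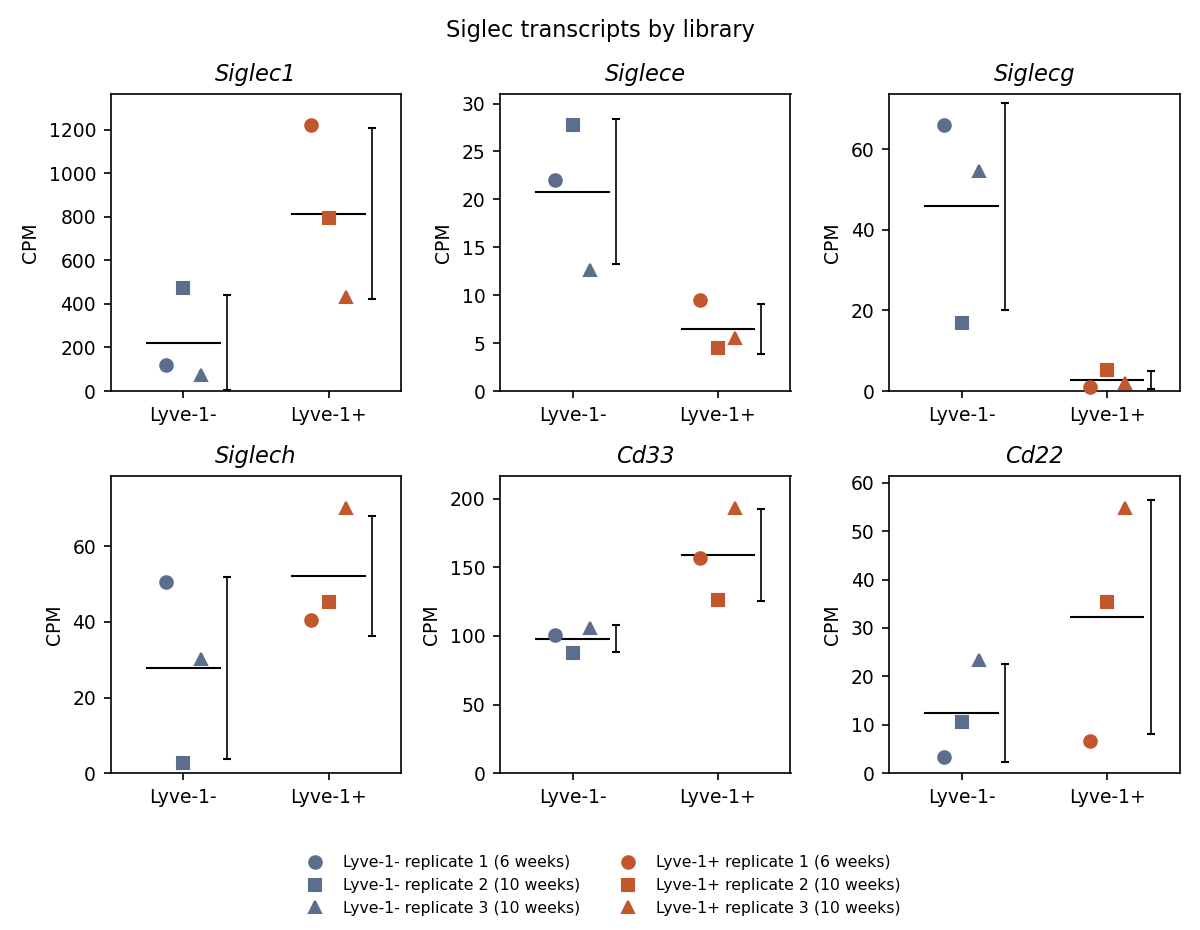
Level of each Siglec gene in CPM (vertical axis, starting at 0 and scaled per gene) in the 3 Lyve-1- and 3 Lyve-1+ libraries, with circles for replicate 1, squares for replicate 2 and triangles for replicate 3; horizontal lines are means and bars the SD of the 3 libraries. The Lyve-1- points lie above all Lyve-1+ points for *Siglece* and *Siglecg* and below all of them for *Cd33*, while the other 3 genes overlap.

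*Siglecg*, which encodes an inhibitory receptor that raises the threshold of B cell receptor signalling and binds CD24, showed the widest difference between the subsets. It lies on the plus strand of chromosome 7 of mm10, from 43408204 to 43418358, with 4806 bp of exon. Replicates 1, 2 and 3 had 785, 190 and 375 counts in Lyve-1- cells, or 65.96, 16.9 and 54.7 CPM. In Lyve-1+ cells they had 14, 110 and 16 counts, or 1.07, 5.27 and 2.02 CPM. The subsets did not overlap, the Lyve-1- libraries being the higher, and replicate 2 was both the lowest of the Lyve-1- and the highest of the Lyve-1+ libraries. The means were 45.8 ± 25.7 CPM (SD, n = 3) and 2.78 ± 2.20 CPM (SD, n = 3), 16.5 times lower in Lyve-1+ cells. The log2 fold change was -4.02 (SE, the standard error, 0.78, 95% interval -5.69 to -2.35, edgeR adjusted p = 0.0333), which was outside the limit of 0.01. The DESeq2 estimate was -4.06 (adjusted p = 5.84e-05).

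The Lyve-1+ counts of *Siglecg* were low and are set here beside the stray counts. The mean density on olfactory receptor genes, which is no upper limit, would place 4.89 of the 14 counts in Lyve-1+ replicate 1. It would place 5.62 of the 110 in Lyve-1+ replicate 2 and 12.7 of the 375 in Lyve-1- replicate 3. With these counts subtracted in every library, the log2 fold change was -4.16 (edgeR adjusted p = 0.0412). Without Lyve-1- replicate 3 and Lyve-1+ replicate 1, the libraries with the most olfactory receptor genes, it was -3.51 (edgeR adjusted p = 0.579), and in the 10-week libraries alone it was -3.26 (edgeR adjusted p = 0.431). The gene was called when replicate 2 of the Lyve-1- cells was left out (-4.41, edgeR adjusted p = 0.00225) and when replicate 2 of the Lyve-1+ cells was (-4.91, edgeR adjusted p = 0.00117).

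*Siglece*, which encodes an ITIM receptor of neutrophils, monocytes and macrophages, was also lower in Lyve-1+ cells, without passing the test. It lies on the minus strand of chromosome 7, from 43651070 to 43660161, with 1849 bp of exon. Its level was 22.01, 27.7 and 12.7 CPM in Lyve-1- replicates 1 to 3 (262, 312 and 87 counts). It was 9.45, 4.50 and 5.54 CPM in the Lyve-1+ replicates (124, 94 and 44 counts). The subsets did not overlap, and the lowest Lyve-1- library, replicate 3, was closest to Lyve-1+ replicate 1. The means were 20.8 ± 7.59 and 6.50 ± 2.61 CPM (SD, n = 3 each), and the log2 fold change was -1.68 (SE 0.82, 95% interval -3.44 to 0.08, edgeR adjusted p = 0.688). The intervals of *Siglece* and *Siglecg* shared the stretch from -3.44 to -2.35.

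*Cd33*, which encodes the founding member of the myeloid CD33-related Siglecs, was the member with the smallest SD relative to its mean in each subset. It lies between *Siglecg* and *Siglece*, on the minus strand from 43524216 to 43544428, with 7771 bp of exon, and the RefSeq start used for its promoter falls inside that span. The Lyve-1- libraries held 101, 87.2 and 106 CPM (1198, 982 and 728 counts) and the Lyve-1+ libraries 157, 126 and 193 CPM (2057, 2638 and 1534 counts). The lowest Lyve-1+ library, replicate 2, was above the highest Lyve-1- library, replicate 3. Means of 98.0 ± 9.72 and 159 ± 33.5 CPM (SD, n = 3 each) differed by a ratio of 1.62. The log2 fold change of 0.70 (SE 0.29, 95% interval 0.07 to 1.32) had an edgeR adjusted p of 0.55 and was below the minimum fold of the rule.

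*Siglec1*, the sialoadhesin gene, lies on the minus strand of chromosome 2 of mm10, from 131069220 to 131086765, with 7143 bp of exon. Lyve-1- replicates 1 to 3 were at 119, 471 and 73.6 CPM (1415, 5306 and 505 counts). Lyve-1+ replicates 1 to 3 were at 1219, 792 and 432 CPM (16005, 16537 and 3427 counts). The subsets overlapped, since Lyve-1- replicate 2 was above Lyve-1+ replicate 3, although the Lyve-1+ library was the higher of all 3 same-numbered pairs. The means were 221 ± 218 and 814 ± 394 CPM (SD, n = 3 each), a ratio of 3.68, and the log2 fold change was 1.88 (SE 0.76, 95% interval 0.05 to 3.71, edgeR adjusted p = 0.63). Without Lyve-1- replicate 2 it was 3.08 and *Siglec1* was called (edgeR adjusted p = 0.00225). In the 10-week libraries alone it was 1.14.

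*Siglech* lies on the plus strand of chromosome 7, from 55768178 to 55778925, 12.1 Mb past *Siglece*, with 3383 bp of exon. Its level was 50.6, 2.67 and 30.2 CPM in the Lyve-1- libraries (602, 30 and 207 counts) and 40.6, 45.4 and 70.2 CPM in the Lyve-1+ libraries (533, 947 and 557 counts). Lyve-1- replicate 2 stood far below the other 5 libraries, and at 6 weeks the Lyve-1- library was the higher one. The log2 fold change was 0.90 (SE 0.75, 95% interval -0.74 to 2.55, edgeR adjusted p = 1.00). It was 0.37 with Lyve-1- replicate 2 left out, 1.68 with Lyve-1- replicate 1 left out and 1.84 in the 10-week libraries alone. The 11 plasmacytoid dendritic cell markers in the table summed to 167 to 218 CPM in Lyve-1- and 306 to 408 CPM in Lyve-1+ libraries, of which most fell on *Tcf4*, *Bst2*, *Runx2* and *Cd209d*, genes used by other cells too. Of the 7 markers tested, 3 had a log2 fold change above 0 and 4 below, with a median of -0.84. *Cd209d* was the only 1 with an edgeR adjusted p under 0.05 (0.629% of all genes). Its log2 fold change was 3.55 (edgeR adjusted p = 0.0405), and DESeq2 called it as well (1.09% of all genes). *Runx2* was at 39.5, 27.1 and 43.7 CPM in Lyve-1- and 12.1, 8.48 and 41.1 CPM in Lyve-1+ libraries (log2 fold change -0.84). Of the other markers in the list, *Ccr9* was between 0 and 8.02 CPM and *Ly6d* between 0 and 10.9 CPM. *Ccr9* and *Ly6d* were both at 0 in Lyve-1- replicate 2, the library with the lowest *Siglech* level, and in Lyve-1+ replicate 3, that with the highest. *Spib* was at 17.1, 3.465 and 8.16 CPM in Lyve-1- and 0.610, 5.13 and 0 CPM in Lyve-1+ libraries. *Pacsin1* was at 1.85, 0.711 and 11.2 CPM in Lyve-1- and 0.533, 0.0479 and 0 CPM in Lyve-1+ libraries. *Klk1*, *Cox6a2* and *Cd300c* reached at most 2.16 CPM. The part of such cells in the level of *Siglech* was not tested.

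*Cd22*, which encodes an inhibitory co-receptor of the B cell receptor, lies on the minus strand of chromosome 7, from 30865402 to 30880342. Of its 5042 bp of exon, 479 bp overlap the antisense gene *Gm29439*, which is not in the table. The strand setting of the counting was not given in the sources used here, so reads of the pair may not be separated. *Cd22* was at 3.44, 10.6 and 23.3 CPM in Lyve-1- replicates 1 to 3 (41, 119 and 160 counts) and at 6.78, 35.3 and 54.8 CPM in the Lyve-1+ replicates (89, 736 and 435 counts). The libraries overlapped, the Lyve-1+ library was the higher of each same-numbered pair, and both 6-week libraries were below all 10-week libraries. The log2 fold change was 1.38 (SE 0.81, 95% interval -0.36 to 3.12, edgeR adjusted p = 0.858). Leaving out replicate 3 gave 0.75 when it was the Lyve-1+ library and 2.20 when it was the Lyve-1- library.

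**Figure D2:**
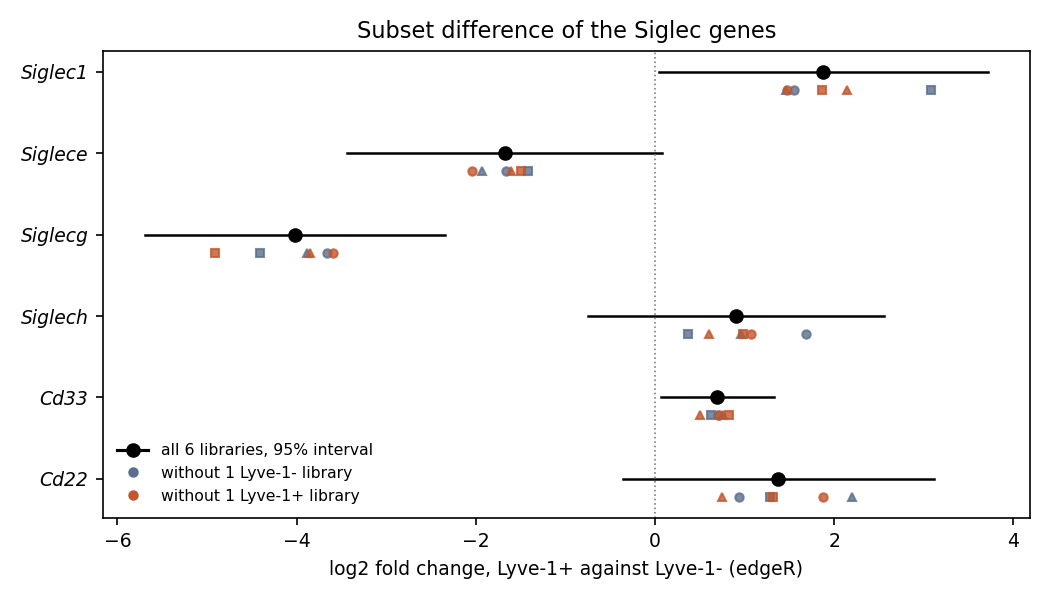
Log2 fold change of each Siglec gene between Lyve-1+ and Lyve-1- libraries (horizontal axis), with the edgeR estimate from all 6 libraries in black, its 95% interval as a line and the estimates without 1 library as small symbols below it (blue without a Lyve-1- library, orange without a Lyve-1+ library, shaped by replicate as in the plot of levels). The interval of *Siglecg* lies from -5.69 to -2.35 and those of *Siglece*, *Siglech* and *Cd22* include 0.

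Levels of different genes were compared per kilobase of exon. The length was that of all annotated exons of a gene merged, which can exceed that of the transcripts expressed. The order of the genes and their shares in a sum depend on it. *Siglec1* was the highest member in Lyve-1+ cells, at 114 CPM per kb, followed by *Cd33* at 20.4 and *Siglech* at 15.4. *Cd22*, *Siglece* and *Siglecg* were at 6.40, 3.51 and 0.58 CPM per kb. In Lyve-1- cells *Siglec1* was at 31.0 CPM per kb, with *Cd33* at 12.6, *Siglece* at 11.2, *Siglecg* at 9.54, *Siglech* at 8.22 and *Cd22* at 2.47. The Lyve-1- mean of *Siglec1* rested on replicate 2, with 16.6, 65.99 and 10.3 CPM per kb in replicates 1 to 3, and in replicate 3 it was below *Cd33* (13.7) and *Siglecg* (11.4). Each neighbour in the Lyve-1- order overlapped the next between libraries. In the Lyve-1+ order, *Siglec1* was above all other members in each library, *Cd33* overlapped *Siglech*, *Cd22* overlapped *Siglece*, and *Siglecg*, at 0.222 to 1.10, lay below every other value. Differences between genes were not tested.

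The summed level of the 6 genes was 70.9, 98.6 and 55.7 CPM per kb in Lyve-1- replicates 1 to 3 and 210, 151 and 120 in Lyve-1+ replicates 1 to 3. *Siglec1* made up 23.5%, 66.9% and 18.5% of that sum in Lyve-1- libraries and 81.5%, 73.4% and 50.2% in Lyve-1+ libraries. Since Lyve-1- replicate 2 resembled the Lyve-1+ libraries in this share, the subsets overlapped. *Siglecg* made up 19.4%, 3.56% and 20.4% in Lyve-1- and 0.106%, 0.726% and 0.348% in Lyve-1+ libraries. *Siglece* made up 12.3% to 16.8% in Lyve-1- and 1.61% to 2.49% in Lyve-1+ libraries. *Cd33* held 11.4% to 24.5% and 9.62% to 20.7%, *Siglech* 0.799% to 21.1% and 5.73% to 17.2%, and *Cd22* 0.964% to 8.30% and 0.642% to 9.03%. Shares sum to the whole in each library, so a higher share of *Siglec1* lowers the others.

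**Figure D3:**
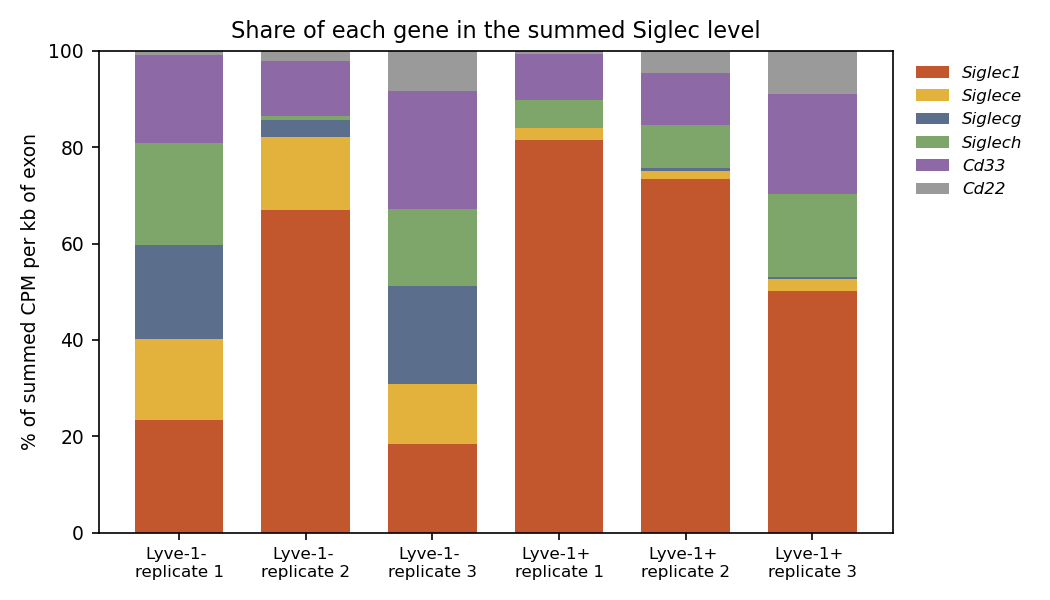
Share of each gene in the summed Siglec level of a library (vertical axis, percent of CPM per kb of exon, from 0 to the whole), with 1 stacked bar per library. *Siglec1* fills 50.2% to 81.5% of the Lyve-1+ bars and 66.9% of the bar of Lyve-1- replicate 2, and the *Siglecg* segment is at most 0.726% in Lyve-1+ bars.

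The remaining Siglec genes in the table were *Siglec5*, *Mag* and *Siglec15*. *Siglec5*, the mouse gene for Siglec-F, is best known from eosinophils and alveolar macrophages, and *Mag* encodes a Siglec of myelinating glia. *Siglec5* was at 40.5, 4.26 and 35.9 CPM in Lyve-1- and 3.05, 6.80 and 25.4 CPM in Lyve-1+ libraries, overlapping between the subsets (log2 fold change -1.20, edgeR adjusted p = 0.992). The summed level of the 6 eosinophil markers was 191, 24.4 and 180 CPM in Lyve-1- and 19.9, 8.001 and 29.7 CPM in Lyve-1+ libraries, so the 2 libraries highest in *Siglec5* were also highest in these markers. Most of this level fell on *Alox15* and *Ccr3* except in Lyve-1+ replicate 3, where *Il5ra* held 22.8 CPM and *Ccr3* was at 0. *Ear6* was at 0 in every library. In Lyve-1- replicate 1, the library highest in *Siglec5*, *Prg2* and *Epx* were also at 0 and *Il5ra* was at 1.60 CPM. In Lyve-1- replicate 3 these genes were at 6.41, 6.27 and 9.04 CPM. The part of such cells in the levels of *Siglec5* was not tested. *Mag* reached 13.6 CPM in Lyve-1- replicate 3, 4.22 and 0.990 CPM in Lyve-1+ replicates 2 and 1, and at most 0.533 CPM elsewhere. These 3 libraries also had the most counts on olfactory receptor genes, 9406, 4160 and 3617 in the same order. *Siglec15* was counted in Lyve-1- replicate 3 (5 counts) and Lyve-1+ replicate 1 (7 counts) and was at 0 elsewhere.

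Markers of B cells, in which *Cd22* and *Siglecg* are best known, were counted at low levels. The 10 B cell markers in the table summed to 18.4, 60.2 and 75.1 CPM in Lyve-1- and 41.3, 74.1 and 308 CPM in Lyve-1+ libraries, with none at 0 in every library. *Cr2* reached 112 CPM and *Ebf1* 63.5 CPM in Lyve-1+ replicate 3, and *Cd79a* was at 0 in replicate 2 of both subsets. *Cd22* had its lowest level in the library with the lowest sum, Lyve-1- replicate 1, and its highest level in that with the highest sum, Lyve-1+ replicate 3. *Siglecg* had its highest level, 65.96 CPM, in the library with the lowest sum and was at 2.02 CPM in the library with the highest. The part of B cells in either gene's level was not tested. Of the 9 B cell markers that could be tested, 8 had a log2 fold change above 0 and 1 below, with a median of 0.95. None had an edgeR adjusted p under 0.05, 2 had an unadjusted p under 0.05 and DESeq2 called none.

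**Figure D4:**
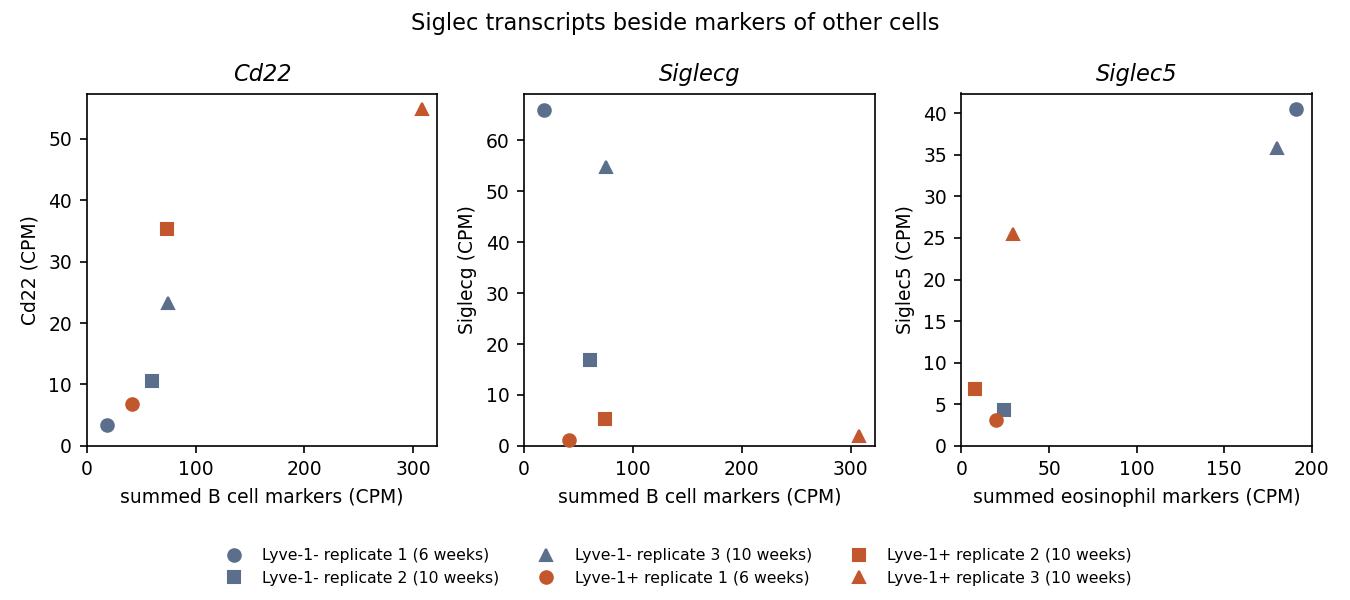
Level of *Cd22*, *Siglecg* and *Siglec5* in CPM (vertical axes) against the summed CPM of B cell or eosinophil markers (horizontal axes), with 1 point per library (blue Lyve-1-, orange Lyve-1+, shaped by replicate). *Cd22* is highest in Lyve-1+ replicate 3, the library with 308 CPM of B cell markers, where *Siglecg* is at 2.02 CPM.

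A model with age and subset compared the 4 libraries of 10 weeks with the 2 of 6 weeks. *Cd22* was higher at 10 weeks, with a log2 fold change of 2.51 (SE 0.77, edgeR unadjusted p = 0.00465, adjusted p = 0.986), and the other 5 members lay between -0.69 and 0.18 (edgeR adjusted p = 1.00). At an edgeR adjusted p under 0.05, 3 genes differed with age (0.0225%) and 1 gene in the interaction of subset and age (0.00749%), none of them a Siglec gene. In the interaction *Siglecg* had 2.66 (edgeR unadjusted p = 0.0963, adjusted p = 0.976), *Siglec1* -2.19 (edgeR unadjusted p = 0.327, adjusted p = 0.976) and *Siglech* 2.14 (edgeR unadjusted p = 0.215, adjusted p = 0.976). With 1 pool of 6 weeks per subset, age and pool cannot be told apart.

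In the Siglec cluster on chromosome 7, 308.8 kb from the start of *Siglec5* to the end of *Siglece*, 16 genes were in the table and 9 could be tested. *Siglecg* ends 105.9 kb before *Cd33* starts, and *Cd33* ends 106.6 kb before *Siglece* starts. The log2 fold changes of the 4 Siglec genes were, in the order of position, -1.20 for *Siglec5*, -4.02 for *Siglecg*, 0.70 for *Cd33* and -1.68 for *Siglece*. *Etfb*, *Vsig10l* and *Iglon5*, which lie among them and are no Siglecs, had 0.51, 0.07 and -0.08, and the zinc finger genes *Zfp658* and *Zfp719* had -1.08 and -1.45. Only *Siglecg* was under an edgeR adjusted p of 0.05 in this window. The Siglecs of the cluster are similar genes between which counting could have split reads, and the handling of such reads was not given in the sources used here.

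Over the 6 libraries, genes with a profile most like that of each member were sought among 9206 well-expressed genes, by Pearson's r of log2 CPM. For *Siglec1* these were *Wsb1* (r = 0.997) and *Cfb* (0.994), for *Siglece* *1300017J02Rik* (0.996) and *Mat1a* (0.992), and for *Siglecg* *Spdl1* (0.988) and *Slc2a3* (0.987). For *Siglech* they were *Penk* (0.990) and *Fzd1* (0.990), for *Cd33* *Pdp1* (0.991) and *Alpk1* (0.990), and for *Cd22* *Dync2h1* (0.974) and *Zbtb42* (0.967). The 6 points share library, depth and subset, and these values describe likeness only. None of the nearest genes was another Siglec.

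Genes that act with the Siglecs were described by 6 lists, of which 57 genes were in the table and 49 could be tested. At an edgeR adjusted p under 0.05, 0 of the 49 passed in either direction, 9 had an unadjusted p under 0.05 (7.69% of all genes) and DESeq2 called 0. Of the 49, 15 had a log2 fold change above 0 and 34 below, with a median of -0.36. With the olfactory receptor background subtracted the median was -0.31 over the 45 genes then tested.

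The signalling partners of ITIM receptors had log2 fold changes around a median of -0.08 (9 genes). *Ptpn6* and *Ptpn11*, which encode the phosphatases SHP-1 and SHP-2, had -0.14 and -0.03, and *Lyn*, a kinase that phosphorylates ITIMs, had -0.08. *Inpp5d*, the lipid phosphatase SHIP-1, had 0.30. The ends of the list were *Socs3* at 0.39 and *Cblb* at -0.63, and the smallest edgeR adjusted p was 0.874. *Tyrobp*, which encodes the DAP12 partner of Siglec-H, was at 314, 216 and 246 CPM in Lyve-1- and 193, 206 and 268 CPM in Lyve-1+ libraries. Its log2 fold change was -0.22 (SE 0.27, edgeR adjusted p = 1.00), and among the 4 activating adaptors the values ran from -0.57 for *Hcst* to 0.12 for *Fcer1g*.

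Among genes that make and carry sialic acids, *Cmah*, which converts Neu5Ac to Neu5Gc before its transfer, had the highest log2 fold change. It was at 44.0, 62.2 and 45.9 CPM in Lyve-1- and 163, 79.9 and 126 CPM in Lyve-1+ libraries, without overlap (log2 fold change 1.27, SE 0.35, edgeR adjusted p = 0.178). Of all genes tested, 7.82% had all Lyve-1+ libraries above. *Slc35a1*, the Golgi transporter of CMP-sialic acid, had the lowest, -1.42 (edgeR adjusted p = 0.767). The median of the 6 tested genes was -0.50, and *Nanp* had 0 counts in every library.

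Of 16 sialyltransferases tested, 4 were above 0 and 12 below, and their median was -0.45 on the log2 scale (-0.39 over 13 genes with the background subtracted). *St3gal2*, which adds sialic acid in alpha-2,3 linkage, had the highest value, 0.90, and *St8sia1*, the GD3 synthase, the lowest, -2.34 (edgeR adjusted p = 0.901). *St8sia6*, chosen after its values were seen, was at 56.4, 35.9 and 66.04 CPM in Lyve-1- and 8.53, 20.9 and 21.2 CPM in Lyve-1+ libraries (log2 fold change -1.65, SE 0.52, edgeR adjusted p = 0.284). The subsets did not overlap for it, with all Lyve-1+ libraries below, which held for 6.5% of all genes tested. *St8sia2*, *St8sia3* and *St6galnac5* had counts only in the 3 libraries with the most olfactory receptor genes.

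The genes listed for removing, breaking down or modifying sialic acids had a median of 0.27 on the log2 scale. Of the 7 tested genes, 5 were above 0 and 2 below. *Nagk*, the N-acetylglucosamine kinase, had the highest value, 2.29 (SE 0.74, edgeR adjusted p = 0.293), with 3.44 to 9.48 CPM in Lyve-1- and 14.3 to 38.8 CPM in Lyve-1+ libraries. *Npl*, chosen after its values were seen, encodes the lyase that cleaves free sialic acid and was at 12.5 to 50.5 and 60.5 to 162 CPM (log2 fold change 1.84, SE 0.53, edgeR adjusted p = 0.204). *Siae*, a sialic acid esterase, had the lowest, -0.75, and the lysosomal sialidase gene *Neu1* had 0.04.

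All 7 genes for sialylated proteins that Siglecs are known to bind or that carry much sialic acid were below 0, with a median log2 fold change of -0.74. *Cd24a*, which encodes the CD24 ligand of Siglec-G, was at 306, 55.3 and 179 CPM in Lyve-1- and 33.6, 45.2 and 89.8 CPM in Lyve-1+ libraries. Its subsets overlapped, and its log2 fold change was -1.68 (SE 0.56, edgeR adjusted p = 0.359). *Cd44*, *Ptprc* (CD45) and *Selplg* (PSGL-1) did not overlap, with -0.80, -0.62 and -0.43 (edgeR adjusted p = 0.422, 0.541 and 0.942). For these 3 of the 7, all Lyve-1+ libraries were below all Lyve-1- libraries, which held for 6.5% of all genes tested. Of the 7, 0 passed an edgeR adjusted p of 0.05 and 4 had an unadjusted p under 0.05 (7.69% of all genes), while DESeq2 called 0. Markers of mammary epithelium, which also expresses *Cd24a*, summed to 461, 55.35 and 206 CPM in Lyve-1- and 105, 124 and 65.8 CPM in Lyve-1+ libraries, and all 7 of them that were tested were below 0. Their part in the level of *Cd24a* and the other counter-receptors was not tested.

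**Figure D5:**
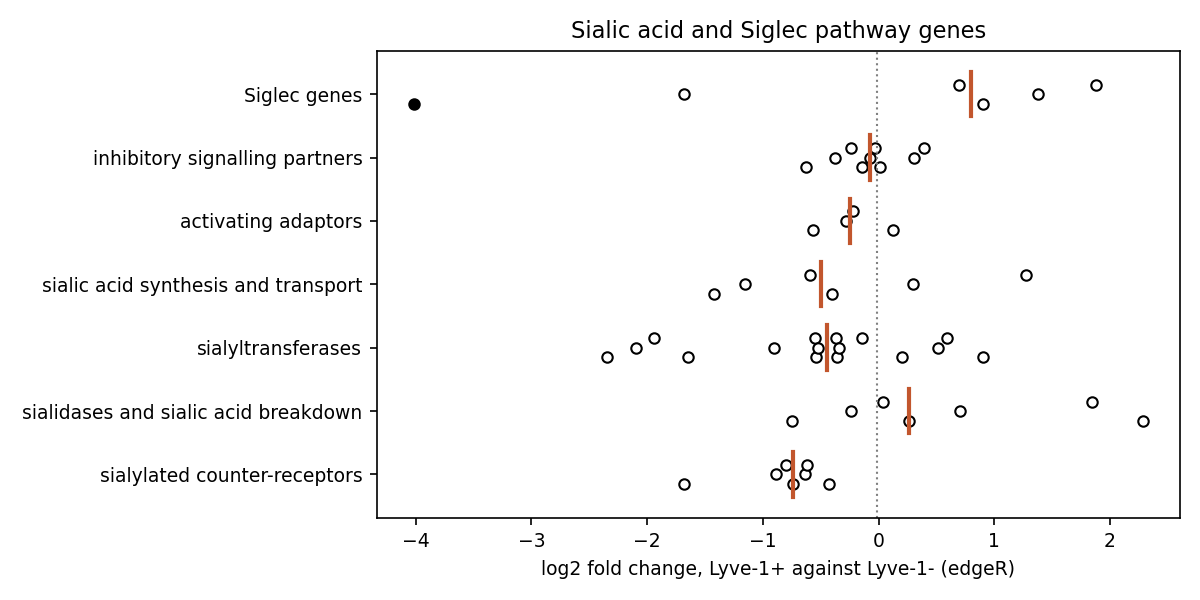
Log2 fold change between Lyve-1+ and Lyve-1- libraries (horizontal axis) of each gene tested in the Siglec genes and the 6 lists of partner genes, with filled circles for an edgeR adjusted p under 0.05, orange bars for list medians and a dotted line at the median of all genes tested. *Siglecg*, at -4.02, is the only filled circle, and the counter-receptors lie entirely below 0. Their median, -0.74, is the value of *Muc1*, which had few counts.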

How the data were processed

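RNA-seq counts of 6 libraries were used. Per the labels and the study's methods, total RNA was made into stranded libraries with the SMARTer Stranded Total RNA Pico kit, and the authors mapped reads to mm10 with HISAT2 2.0.2, counted them with featureCounts 1.5.0 of Subread (versions from the submitters' processing notes) and deposited whole-number counts per gene symbol without normalization. Positions and exonic lengths came from GENCODE M21, which matched 22757 symbols directly and 914 through RefSeq synonyms.

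From the counts, R 4.3.3 and edgeR 4.0.16 (filterByExpr, TMM, robust quasi-likelihood F test, Benjamini-Hochberg adjustment over all genes, subset as the only term) compared Lyve-1+ with Lyve-1- libraries. The common biological coefficient of variation was 0.931. DESeq2 1.42.0 (the tool the methods name), other scalings, filters, thresholds and left-out libraries were alternatives. The tests were tried on simulated counts that were less variable than these data, so the trial does not show how they perform at this spread. Log2 CPM used a prior count of 2.

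The members and all gene lists were chosen with earlier results of these data known. Named were the members, *Lyve1*, the 2 genes most like each member, the gene with the highest and lowest fold change of each list and marker genes needed beside a member. All other genes named from the lists (such as *Ptpn6*, *Tyrobp*, *Neu1*, *Npl*, *St8sia6*, *Cd44* and *Ptprc*) and the neighbours on chromosome 7 were chosen after their values were seen. Lists are described by counts and medians, without a set test.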

Additional observations from a re-analysis of the deposited data

How the results depend on the processing

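The 6 members kept their direction in all 19 alternatives. Instead of 15 genes, 145 were called by DESeq2, 188 without a filter on low counts, 32 with at least 10 counts in every library, 58 with age as a covariate and 84 at an adjusted p under 0.05 without a fold limit. With 1 library left out, 1 (without Lyve-1- replicate 3) to 81 genes (without Lyve-1+ replicate 2) were called. Without the 2 libraries with the most olfactory receptor genes, chosen after seeing the data, edgeR called 0 genes, with 639 at an unadjusted p under 0.05; DESeq2 was not run there. *Siglec1* was then at 1.03 and *Cd22* at 2.66. DESeq2, no filter on low counts and the limit of 0.05 each called 1 Siglec gene, *Siglecg*, at log2 fold changes of -4.06, -4.03 and -4.02. With 1 library left out, 0 to 2 Siglec genes were called, *Siglecg* ran from -4.91 to -3.60 and *Siglec1* from 1.46 to 3.08. The adjusted p of *Siglec1* ran from 0.00225 to 1.00 over the alternatives, and that of *Siglecg* from 1.66e-05 to 0.579. The cause of these changes was not tested. Deviations of same-numbered libraries from their subset means correlated at r = -0.046, -0.0018 and -0.15. Of the 6 libraries, 0 correlated best with their own number. Differently numbered libraries reached only 0.158 (Lyve-1- replicate 3 with Lyve-1+ replicate 1), so this check cannot decide whether replicate numbers pair the libraries. With the replicate block, 140 genes were called, 1 of them a Siglec gene, *Siglecg* at -4.17 (edgeR adjusted p = 0.00666), and *Siglech* was at 1.55. Scaling by DESeq2 size factors or total size moved the median of all genes by less than 0.1, to -0.04 and -0.08, and omitting the filter moved it to -0.27.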
